A study of Mus musculus with 2 samples.

Results

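The NF-κB pathway was examined in mouse intestinal organoids through 39 genes, chosen by name from its receptors and adaptors (10 genes), kinases (4), transcription factor subunits (5), inhibitors (8) and known target genes (12). All 39 were found among the 19294 genes of the count table. The organoids were grown from jejunal crypts of Lgr5-EGFP-IRES-creERT2 mice, whose Lgr5 locus carries the EGFP and creERT2 insert in the control and the treated culture alike, and were kept in medium with EGF, Noggin and R-spondin. One culture was an untreated control, and the other was exposed for 4 days to dextran sulfate sodium (DSS), a polymer used to injure the gut lining in models of colitis. The DSS concentration used for sequencing, the age of the mice and the number of animals or wells behind each culture are not given in the sources used here. With 1 library per condition there was no replicate, so no difference was tested and no p-value is given.

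NF-κB is a family of dimeric transcription factors that wait in the cytoplasm, held by IκB proteins. In the canonical route, TNF receptors or pattern receptors recruit adaptors that switch on the IκB kinase complex, IκB is degraded, and dimers of RELA and the processed product of Nfkb1 enter the nucleus. In the non-canonical route, receptors such as the lymphotoxin β receptor release the kinase NIK, encoded by Map3k14, which acts through IKKα (Chuk) to process the product of Nfkb2 and free dimers with RELB. Many targets are themselves brakes on the pathway, among them Nfkbia and Tnfaip3. In the gut epithelium the pathway is known for protecting cells against death and for driving the defence against microbes.

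Library totals were 65493032 counts without DSS and 59746968 with it. Counts were scaled with TMM factors, which correct library totals for a few abundant genes, and levels are given as CPM, a gene's counts relative to the scaled library total. The value used for each gene is the log2 ratio of scaled counts, DSS over control. Its 95% interval, by the exact Clopper-Pearson method, covers counting error only. For the 17235 genes that reached 10 counts in either library, the median log2 ratio was -0.06, and with library totals alone in place of TMM factors every ratio fell by 0.26. The labels name the cells as intestinal stem cells. In the DSS library the 5 stem cell markers were all lower, with Lgr5 at 18849 and 1048 counts and Olfm4 at 13109 and 13. All 7 enterocyte and all 5 goblet cell markers were higher by a log2 ratio of 1 or more, against 19.3% of all genes tested. The summed level of the enterocyte markers went from 2389 CPM without DSS to 21173 CPM with it, and that of the goblet cell markers from 703 to 11136 CPM. All 5 Paneth cell markers were lower, 4 of them at a log2 ratio of -1 or less (20.2% of all genes tested), and summed to 503 and 242 CPM. The part of this shift in the NF-κB values was not tested, and in bulk RNA fewer cells of a type and less RNA per cell cannot be told apart.

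Of 15 immune cell markers, 4 reached 10 counts, and their summed level was 105 CPM without DSS and 39.7 CPM with it. Lcp1, at 92.8 and 16.4 CPM, made up the lower sum, whereas Csf1r, Itgam and Cd68 were at log2 ratios of 1.61, 1.14 and 0.73. Ptprc, Cd3e and Adgre1, which define leukocytes, T cells and macrophages, were absent from the count table, and Csf1r had 9 and 21 counts. No gene with 0 counts in a library is in that table, so absence from it does not show silence in both libraries. Of 10 mesenchymal markers, 3 reached 10 counts and summed to 1.40 and 1.98 CPM, with Col1a1 at 29 and 24 counts and Pdgfra at 3 and 7. Of 5 endothelial markers 3 did, at 7.64 and 4.68 CPM, with Pecam1 at 12 and 55 counts, Tek at 12 and 97 and Esam at 523 and 104. The 8 epithelial markers summed to 6319 and 10755 CPM. Epcam, Cdh1, Krt18 and Cldn7, at log2 ratios of 0.03, -0.03, 0.04 and -0.02, were close to equal in both libraries. Krt8, Krt19, Vil1 and Krt20 were higher in the DSS library, at 0.84, 1.15, 1.25 and 3.99. Itgam and Cd68, markers of myeloid cells, had 375 and 491 counts without DSS and 631 and 621 with it, and the part of such cells in the NF-κB values was not tested.

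Most of the NF-κB genes were modestly higher in the DSS library and almost none was strongly lower. Of the 39 genes, 27 had a log2 ratio above 0 (69.2%), against 48% of all genes tested. The 39 genes were chosen with earlier results of these data known, so the shares given here only describe them. At a log2 ratio of 1 or more, a 2-fold difference, stood 8 genes (20.5%), which was close to the background of 19.3% of all genes. At -1 or less stood 1 gene (2.56%), against 20.2% of all genes. Between these lines lay 30 of the 39 genes (76.9%), against 60.5% of all genes, and none of the 39 was past a log2 ratio of 2 or -2, lines that 7.87% and 6.54% of all genes passed. The median log2 ratio of the 39 genes was 0.42. The counting interval lay above 0 for 24 genes (38.7% of all genes tested) and below 0 for 10 (42.7% of all genes tested). All 39 genes passed the minimum of 10 counts, and only Icam1 had fewer than 50 counts in both libraries. When 50 counts were required in either library, 8 of the remaining genes stood at 1 or more and 0 at -1 or less, against 16.7% and 20.4% of all genes. The count at 1 or more depended on the scaling. It was 3 genes (7.69%, against 15.4% of all genes) with library totals alone, 12 (30.8%, against 21.2%) with upper quartile factors and 10 (25.6%, against 20.5%) when ratios were centred on the median gene. The count at -1 or less was 3 (7.69%, against 26.2% of all genes) with library totals alone and 1 with the other scalings, below the share of all genes in each.

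**Figure D1:**
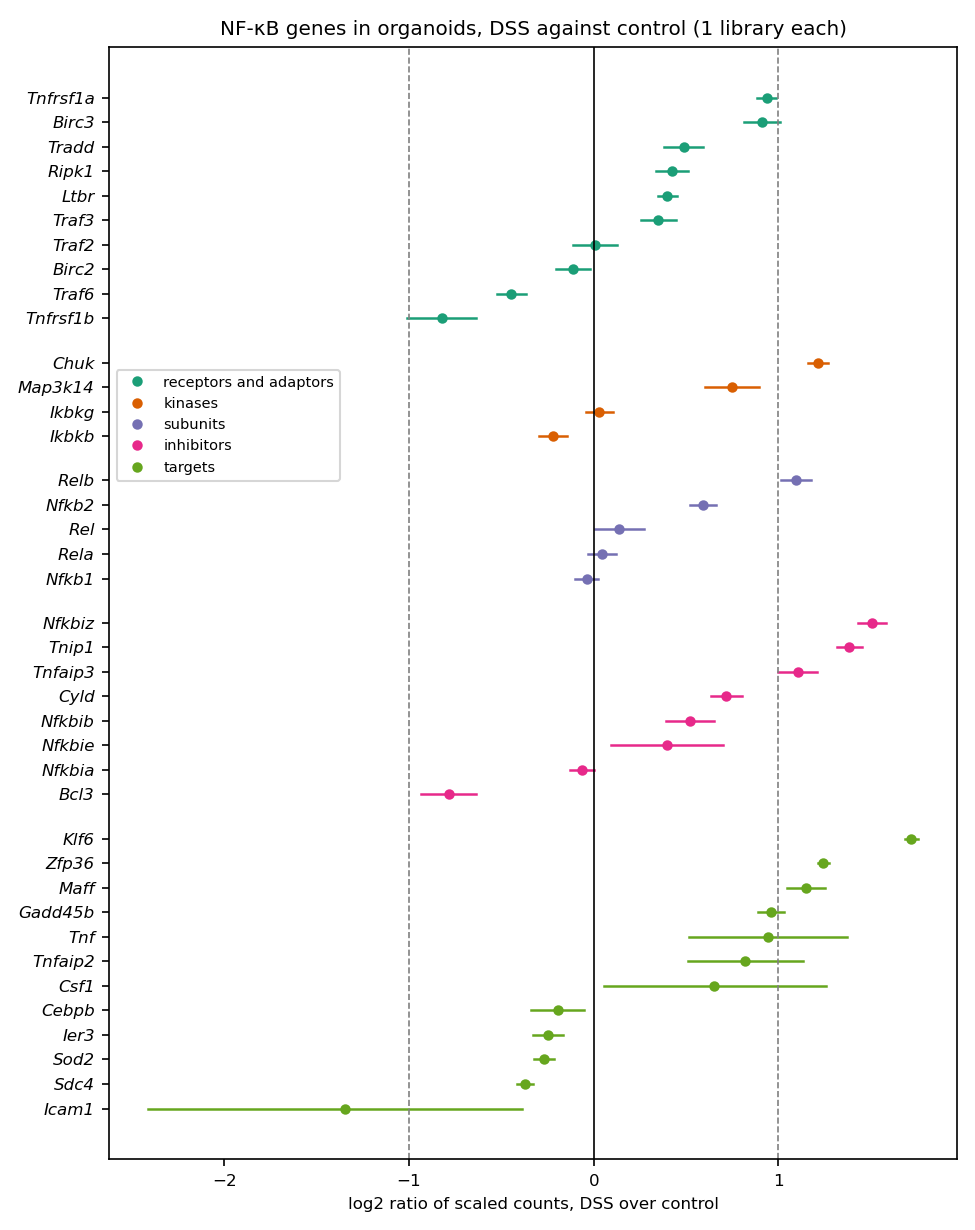
Log2 ratio of scaled counts, DSS over control, for each of the 39 NF-κB genes, with genes on the vertical axis grouped by class and coloured accordingly. Points are ratios of 1 library per condition, bars are 95% counting intervals, and dashed lines mark log2 ratios of -1 and 1; 8 genes lie at or beyond the right line and Icam1 alone beyond the left.

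The classes differed in their medians. The targets had the highest median log2 ratio, 0.74, followed by the inhibitors at 0.62, the kinases at 0.39, the receptors and adaptors at 0.37 and the subunits at 0.14. A log2 ratio of 1 or more was reached by 3 of 12 targets (25%) and 3 of 8 inhibitors (37.5%). For the kinases it was 1 of 4 (25%) and for the subunits 1 of 5 (20%). The background was 19.3% of all genes tested, and in classes this small 1 gene moves the share widely. Of the 10 receptors and adaptors 0 reached the line, though Tnfrsf1a came to 1.03 and Birc3 to the line with upper quartile factors. The only gene at -1 or less was the target Icam1. By the mean the order was another, with the inhibitors first at 0.60 and the targets at 0.42. The classes overlapped widely, since the targets alone ran from -1.35 to 1.72.

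**Figure D2:**
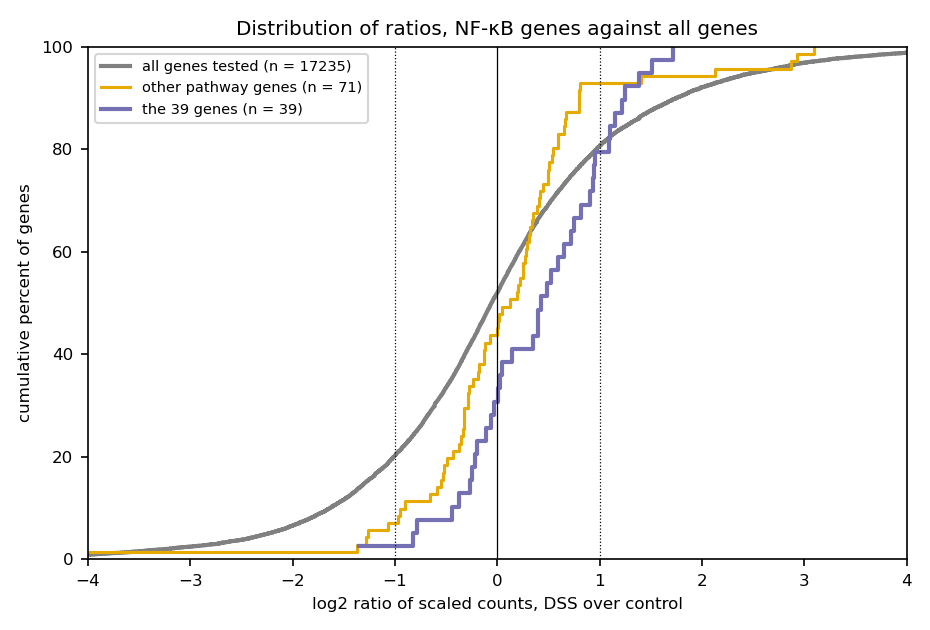
Cumulative percent of genes (vertical axis) against the log2 ratio of scaled counts, DSS over control (horizontal axis, drawn from -4 to 4), for all 17235 genes tested, 71 other genes of the pathway and the 39 NF-κB genes. The curve of the 39 genes starts later on the left, with 2.56% at -1 or less against 20.2% of all genes, and meets the curve of all genes near a log2 ratio of 1.

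Among the receptors, the main TNF receptor of epithelial cells was higher in the DSS library and the other TNF receptor was lower. Tnfrsf1a, the widely expressed receptor with a death domain, had 5080 counts without DSS (71.0 CPM) and 7431 with DSS (136 CPM), a log2 ratio of 0.94 (interval 0.89 to 0.99). Tnfrsf1b, the TNF receptor without a death domain, had 774 and 334 counts (10.8 and 6.11 CPM), at -0.82 (interval -1.01 to -0.64). The ratio of Tnfrsf1b to Tnfrsf1a counts, which no scaling of the libraries can move, was therefore lower in the DSS library by a log2 difference of -1.76 (interval -1.95 to -1.57). Ltbr, the lymphotoxin β receptor that opens the non-canonical route, had 6529 and 6576 counts, which was 91.2 and 120 CPM and a log2 ratio of 0.40. Per kilobase of the longest coding transcript, Ltbr and Tnfrsf1a were the most abundant genes of this class in each library, at 43.3 and 32.9 CPM per kilobase in the control, and Tnfrsf1b was the least abundant, at 2.83. In the control the order of Ltbr and Tnfrsf1a depended on the transcript length used. In the DSS library Tnfrsf1a led by either length, at 63.0 CPM per kilobase against 57.1 for Ltbr with the longest transcript. The place of Tnfrsf1b did not depend on the length.

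The adaptors that gather at the receptor were mostly near equal or slightly higher. Tradd, the first adaptor at Tnfrsf1a, was at 19.9 CPM without DSS and 27.9 CPM with it, a log2 ratio of 0.49. Ripk1, a kinase that serves as a scaffold there, was at 30.6 and 41.0 CPM, a log2 ratio of 0.42. Both were higher by less than a doubling. Traf2, which joins TRADD to the ubiquitin ligases, had 1294 and 994 counts and a log2 ratio of 0.01, which turned to -0.25 with library totals alone. Traf3, the adaptor that marks NIK for degradation, was at 26.4 and 33.7 CPM, at 0.35, while Traf6, which serves Toll-like and IL-1 receptors, was at 53.0 and 38.9 CPM, at -0.45. With TMM factors, Traf6 was thus the one TRAF gene of this class whose interval lay below 0.

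The 2 inhibitor of apoptosis genes, which encode ubiquitin ligases of the receptor complex, parted. Birc3, which is also a classical NF-κB target, had 1423 and 2042 counts (19.9 and 37.3 CPM), a log2 ratio of 0.91 (interval 0.81 to 1.01). Birc2 had 2271 and 1605 counts (31.7 and 29.4 CPM), at -0.11. The ratio of Birc3 to Birc2 counts was higher in the DSS library by a log2 difference of 1.02 (interval 0.89 to 1.16). They are close paralogs, so their separate counts depend on how reads that match both were assigned, which is not given in the sources used here.

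Of the 4 kinase genes, Chuk had the highest ratio. Chuk, which encodes IKKα, a member of the IκB kinase complex that also serves the non-canonical route, had 4090 and 7248 counts (57.1 and 133 CPM), a log2 ratio of 1.21 (interval 1.16 to 1.27), which became 0.96 with library totals alone. Map3k14, which encodes NIK, had 677 and 868 counts (9.46 and 15.9 CPM), at 0.75 (interval 0.60 to 0.89). Chuk and Map3k14 were higher in the DSS library under every scaling used.

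The other kinase genes were slightly lower or near equal. Ikbkb, which encodes IKKβ, had 3722 and 2442 counts (52.0 and 44.7 CPM), at -0.22 (interval -0.29 to -0.15). Ikbkg, the regulatory subunit NEMO, had 3616 and 2821 counts, at 0.03, and was at -0.23 with library totals alone. Counts of Ikbkb relative to Chuk were lower in the DSS library by a log2 difference of -1.43 (interval -1.53 to -1.34).

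Relb and Nfkb2 had the highest ratios of the 5 subunits. Relb, the partner of the processed Nfkb2 product, had 1984 counts without DSS (27.7 CPM) and 3239 with DSS (59.2 CPM), a log2 ratio of 1.10 (interval 1.01 to 1.18), or 0.84 with library totals alone. Nfkb2 had 3177 and 3655 counts (44.4 and 66.9 CPM), at 0.59 (interval 0.52 to 0.66). Both were higher under every scaling used. Traf2 and Birc2, which also act in the non-canonical route, were at 0.01 and -0.11, and no difference between the routes was tested.

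Rela, Nfkb1 and Rel, the subunits of the canonical route, lay close to 0. Rela had 3256 and 2563 counts (45.5 and 46.9 CPM), at 0.04 (interval -0.03 to 0.12), and was at -0.21 with library totals alone. Nfkb1 had 4888 and 3640 counts (68.3 and 66.6 CPM), at -0.04 (interval -0.10 to 0.03), and turned to 0.05 with upper quartile factors and 0.02 when ratios were centred on the median gene. Rel, best known from lymphocytes, had 1033 and 869 counts, at 0.14, and was at -0.12 with library totals alone. The sign of these 3 genes therefore depended on the scaling. Relative to Rela, Relb counts were higher in the DSS library by a log2 difference of 1.05 (interval 0.94 to 1.16), and relative to Nfkb1, Nfkb2 counts were higher by 0.63 (interval 0.54 to 0.72). Rel relative to Rela differed by 0.10 (interval -0.05 to 0.25), which included 0. Per kilobase of transcript, Rel was the least abundant subunit in both libraries, at 1.93 and 2.13 CPM per kilobase. Rela and Nfkb1 led in the control, at 16.8 and 16.6 CPM per kilobase, and Relb was at 26.8 in the DSS library, where the first place depended on the transcript length used.

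**Figure D3:**
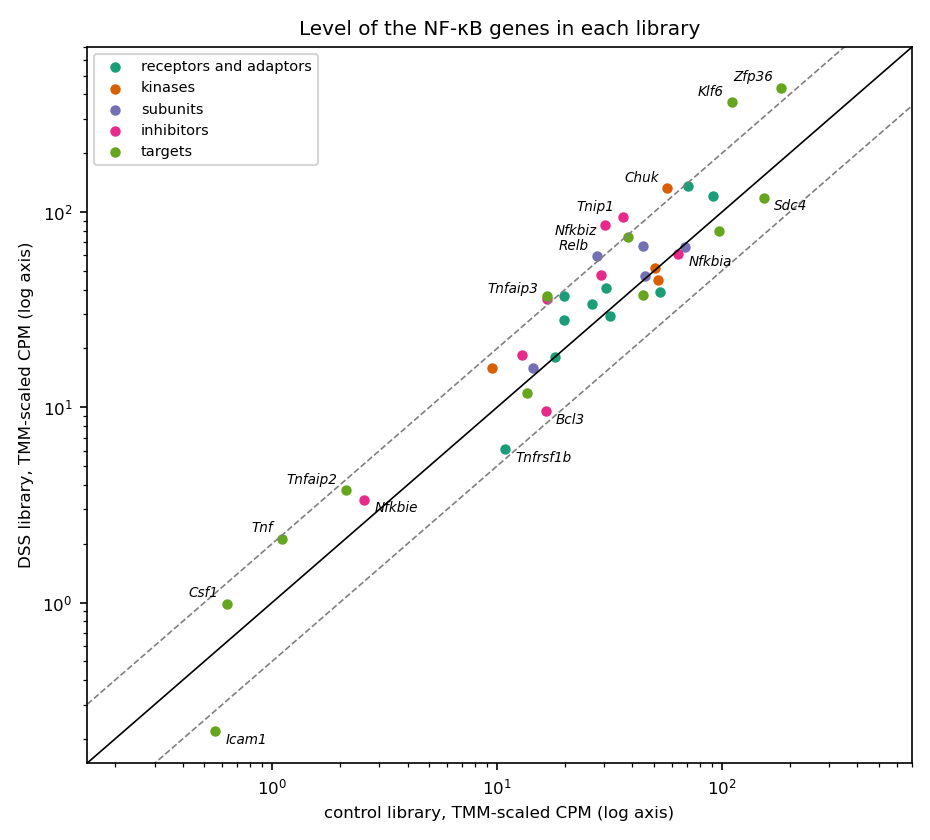
Level of each of the 39 NF-κB genes in the control library (horizontal axis) and the DSS library (vertical axis), as TMM-scaled CPM on log axes, with 1 point per gene coloured by class. The solid line marks equal levels and dashed lines a 2-fold difference; Zfp36 (183 and 434 CPM) and Klf6 (111 and 364 CPM) lie at the top right above the upper dashed line, and Icam1 (0.559 and 0.219 CPM) lies at the bottom left below the lower one.

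Of the 8 inhibitors, 3 stood at a log2 ratio of 1 or more (37.5%, against 19.3% of all genes). None stood at -1 or less, against 20.2% of all genes, and the 8 ran from -0.79 to 1.51. Nfkbiz, which encodes the nuclear protein IκBζ that also helps to switch on a subset of targets, had 2164 and 4699 counts (30.2 and 85.9 CPM), a log2 ratio of 1.51 (interval 1.43 to 1.58). Tnip1, which encodes a ubiquitin-binding partner of the deubiquitinase A20, had 2590 and 5167 counts (36.2 and 94.5 CPM), at 1.38 (interval 1.32 to 1.45). Tnfaip3, the gene of A20 itself, had 1195 and 1963 counts (16.7 and 35.9 CPM), at 1.10 (interval 1.0 to 1.21), or 0.85 with library totals alone. In a separate list of 21 other brakes on the pathway the median log2 ratio was 0.25. There 2 stood at 1 or more (9.52%) and 1 at -1 or less (4.76%), smaller shares than the 19.3% and 20.2% of all genes. Cyld, another deubiquitinase of the pathway and a tumour suppressor, was at 28.9 and 47.5 CPM, a log2 ratio of 0.72.

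Nfkbia, which encodes IκBα and is the most used readout of the canonical route, was near equal, with 4567 counts without DSS (63.8 CPM) and 3344 with DSS (61.2 CPM). Its log2 ratio was -0.06 (interval -0.13 to 0.00), and it turned to 0.03 with upper quartile factors. Nfkbib, which encodes IκBβ, had 924 and 1014 counts (12.9 and 18.5 CPM), at 0.52 (interval 0.39 to 0.65). Nfkbie, which encodes IκBε, had 183 and 184 counts (2.56 and 3.37 CPM), at 0.40 (interval 0.09 to 0.70). Counts of Nfkbia relative to Nfkbib were lower in the DSS library by a log2 difference of -0.58 (interval -0.73 to -0.44). Per kilobase, Nfkbia remained the most abundant inhibitor in both libraries, at 40.4 and 38.8 CPM per kilobase, and Nfkbie the least abundant, at 1.05 and 1.38. Bcl3, a nuclear IκB protein that binds dimers of the processed Nfkb1 and Nfkb2 products, went the other way, with 1176 and 521 counts (16.4 and 9.53 CPM) and a log2 ratio of -0.79, or -1.04 with library totals alone.

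The sequences upstream of these genes were read from the RefSeq promoter table for build GRCm38.p6, which gave 44 windows for 34 of the 39 genes. Each was searched over the 250 bases before the annotated start site, on both strands, for the κB consensus, the degenerate site of NF-κB dimers, and for the exact site of the immunoglobulin κ enhancer, which is a form of the consensus. The consensus was found for 14 of the 34 genes (41.2%), against 8.23% of the 27025 genes with windows in the table and 10.2% of the 12057 of them that were tested here. The κ enhancer site was found for 3 of the 34 (8.82%), Csf1, Cyld and Nfkb2, against 0.159% of the 27025. By class, 5 of 7 inhibitors, 2 of 3 subunits, 6 of 12 targets, 1 of 9 receptors and adaptors and 0 of 3 kinases held the consensus. Genes of this pathway were picked partly because they are known targets, and a match describes letters in a window, not binding. The median log2 ratio was 0.49 for the 14 genes with a match and 0.41 for the 20 without. Above 0 were 10 of the 14 genes with a match and 14 of the 20 without, near-equal shares, against 48% of all genes tested.

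Matches upstream of the inhibitors are printed here beside each gene's log2 ratio. Their letters are alike because the search kept only stretches that fit the consensus. Nfkbib and Bcl3 had a window but no match, and Nfkbiz had no window. Capitals mark the match, each sequence reads 5′ to 3′ on the strand of the gene, and overlapping matches are merged.
Tnip1, log2 ratio 1.38, chr11:54962962-54963023, minus strand: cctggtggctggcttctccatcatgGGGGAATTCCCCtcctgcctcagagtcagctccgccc
Tnfaip3, log2 ratio 1.10, chr10:19015411-19015447, minus strand: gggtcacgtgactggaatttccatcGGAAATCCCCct
Cyld, log2 ratio 0.72, chr8:88696848-88696907, plus strand: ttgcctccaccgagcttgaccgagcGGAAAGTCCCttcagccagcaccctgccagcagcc
Nfkbie, log2 ratio 0.40, chr17:45555569-45555628, plus strand: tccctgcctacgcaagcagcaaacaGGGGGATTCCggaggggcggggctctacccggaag
Nfkbia, log2 ratio -0.06, chr12:55492648-55492701, minus strand: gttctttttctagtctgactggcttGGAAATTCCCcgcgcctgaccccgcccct
The Tnip1 match was a palindrome of 12 bases that holds 4 overlapping matches, 58 to 47 bases before the start site, and the Cyld match was the κ enhancer site, read here from its opposite strand, 155 to 146 bases before it. The Nfkbia match lay 29 to 20 bases before the start site and the Tnfaip3 match, the nearer of its 2, 12 to 3 bases before it.

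The gene with the highest ratio of the 39 was the target Klf6. At a log2 ratio of 1 or more stood 3 of the 12 targets (25%, against 19.3% of all genes). Klf6, a zinc finger transcription factor induced by injury, had 7913 counts without DSS (111 CPM) and 19925 with DSS (364 CPM), a log2 ratio of 1.72 (interval 1.68 to 1.76). Zfp36, which encodes tristetraprolin, a protein that marks cytokine mRNAs for decay, had 13122 and 23732 counts (183 and 434 CPM), at 1.24 (interval 1.21 to 1.27), or 0.99 with library totals alone. Per kilobase of transcript, Zfp36 was the most abundant of the 39 genes in the DSS library, at 156 CPM per kilobase. Maff, a small MAF transcription factor, had 1192 and 2020 counts (16.7 and 36.9 CPM), at 1.15 (interval 1.05 to 1.25), or 0.89 with library totals alone. Gadd45b, a stress sensor that curbs JNK signaling, had 2729 and 4049 counts (38.1 and 74.1 CPM), at 0.96 (interval 0.89 to 1.03). Klf6, Zfp36, Maff and Gadd45b are also early response genes that answer to other signals.

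Another group of abundant targets was slightly lower in the DSS library. Sdc4, a heparan sulfate proteoglycan of the cell surface, had 10972 and 6482 counts (153 and 119 CPM), at -0.37 (interval -0.42 to -0.33). Sod2, the mitochondrial superoxide dismutase, was at 96.6 and 80.2 CPM, at -0.27, and Ier3, an early response gene that guards against cell death, was at 44.8 and 37.7 CPM, at -0.25. Cebpb, a transcription factor of the acute phase response, was at 13.6 and 11.9 CPM, at -0.19. All 4 had intervals below 0, and all 4 stayed below 0 under every scaling used.

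The targets Tnf, Csf1, Icam1 and Tnfaip2 were scarce in both libraries. Tnf, the cytokine that gives the pathway its main trigger, had 79 counts without DSS (1.10 CPM) and 116 with DSS (2.12 CPM), a log2 ratio of 0.94 (interval 0.52 to 1.37). Csf1, the macrophage growth factor, had 45 and 54 counts, at 0.65 (interval 0.05 to 1.26). Icam1, the adhesion molecule that leukocytes bind, had 40 and 12 counts (0.559 and 0.219 CPM), at -1.35 (interval -2.41 to -0.39). Tnfaip2, a TNF-induced gene linked to membrane protrusions, had 152 and 205 counts, at 0.82 (interval 0.51 to 1.13). Per kilobase these were the 4 least abundant of the 39 genes in both libraries, at 0.673 CPM per kilobase or less in the control. Their wide intervals show how little these counts could resolve.

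The κB matches upstream of the targets fell on both sides. They are printed for the target that was higher by more than a doubling, for the 3 abundant targets with a match that were lower, and for Csf1, whose match is the κ enhancer site on the opposite strand, with the same capitals as Cyld.
Maff, log2 ratio 1.15, chr15:79348307-79348366, plus strand: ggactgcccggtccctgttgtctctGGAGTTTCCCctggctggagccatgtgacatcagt
Csf1, log2 ratio 0.65, chr3:107760589-107760648, minus strand: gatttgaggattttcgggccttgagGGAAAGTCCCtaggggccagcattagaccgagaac
Ier3, log2 ratio -0.25, chr17:35821596-35821655, plus strand: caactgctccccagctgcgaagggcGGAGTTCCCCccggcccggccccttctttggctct
Sod2, log2 ratio -0.27, chr17:13007731-13007790, plus strand: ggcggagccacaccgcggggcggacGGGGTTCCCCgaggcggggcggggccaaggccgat
Sdc4, log2 ratio -0.37, chr2:164443236-164443295, minus strand: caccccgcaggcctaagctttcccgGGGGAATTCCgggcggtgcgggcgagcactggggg
Klf6, Zfp36 and Gadd45b, the other targets with high ratios and counts, had no match in these 250 bases, which says only that the consensus is not in that window. The median log2 ratio was 0.20 for the 6 targets with a match and 0.95 for the 6 without. The inhibitors had the opposite order, 0.72 for the 5 with a match and -0.13 for the 2 without. No difference by match was tested.

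Rel and Traf3 also held a match. That of Rel is shown for its overlap of 3 matches on both strands, 92 to 82 bases before the start site.
Rel, log2 ratio 0.14, chr11:23771026-23771086, minus strand: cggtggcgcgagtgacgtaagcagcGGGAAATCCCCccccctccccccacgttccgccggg
Nfkb2, at 0.59, held 4 separate matches, spread over the windows of different start sites on chromosome 19. Among them was GGGAATTCCCC, 39 to 29 bases before its start site.

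Outside these 39 genes, 80 other genes of the pathway were listed by role, of which 74 were in the count table and 71 reached 10 counts in either library. Their median log2 ratio was 0.12, with 5 at 1 or more (7.04%) and 5 at -1 or less (7.04%), each a smaller share than the 19.3% and 20.2% of all genes. The 12 other genes of the TNF receptor complex, among them the linear ubiquitin ligase genes Rnf31, Rbck1 and Sharpin, ran from -0.66 to 0.79, and the 12 other kinase complex genes, with Map3k7 and its partners, from -0.32 to 0.66. None of these 24 genes reached a log2 ratio of 1 or -1.

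**Figure D4:**
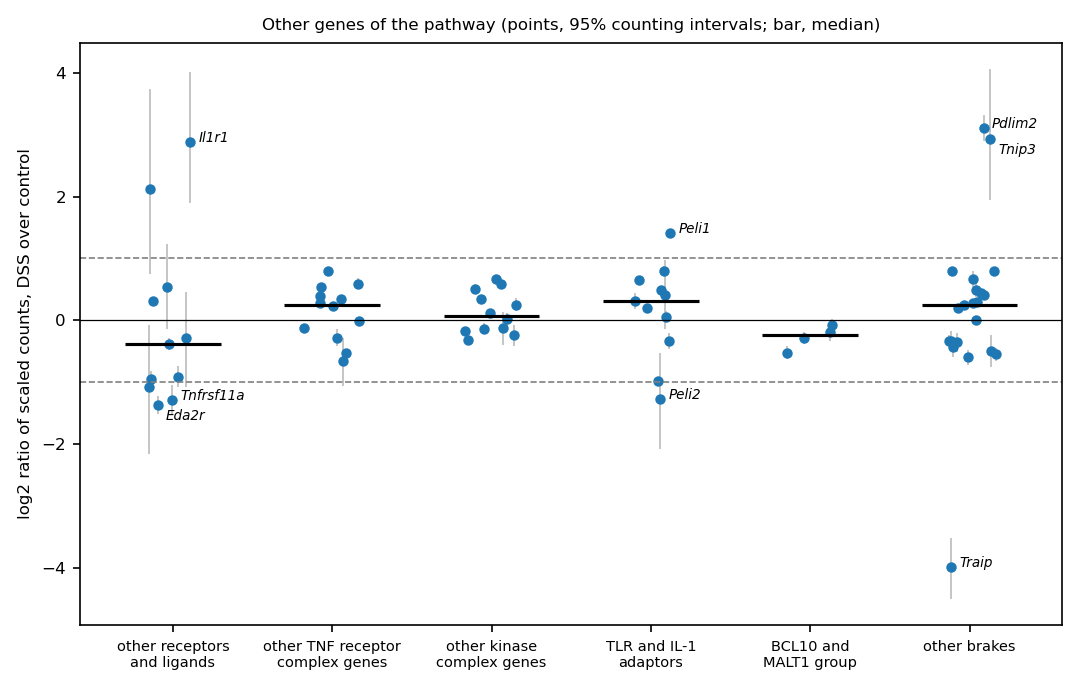
Log2 ratio of scaled counts, DSS over control (vertical axis), for the 71 other genes of the pathway that reached 10 counts in either library, grouped by role on the horizontal axis. Points are genes, grey bars 95% counting intervals, black bars the median of a group and dashed lines log2 ratios of -1 and 1; named genes reached 50 counts in either library and lie past a dashed line, from Pdlim2 at 3.10 down to Traip at -3.98.

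The larger differences among the other genes were few. Peli1, a ubiquitin ligase of Toll-like and IL-1 receptor signaling, had 2248 and 4543 counts, a log2 ratio of 1.40, while its relative Peli2 had 63 and 20, at -1.27. Pdlim2, which encodes a ligase that ends the action of nuclear RELA, had 214 and 1401 counts, at 3.10 (interval 2.89 to 3.31). Tnip3, a paralog of Tnip1, had 10 and 58 counts, at 2.92 (interval 1.94 to 4.06), and the IL-1 receptor gene Il1r1 had 10 and 56. Each of these 5 genes but Peli2 was higher in the DSS library. The remaining genes past a line, Lta (6 and 20 counts) and Cd40 (33 and 12 counts), had fewer than 50 counts.

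Traip and a pair of receptor genes were lower by more than a doubling. Traip, which encodes a TRAF-interacting ubiquitin ligase that also works in DNA replication, had 784 and 38 counts, at -3.98. Eda2r and Tnfrsf11a, which encode the ectodysplasin A2 receptor and RANK, were at -1.37 and -1.28, with 1813 and 537 counts and 575 and 181 counts.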

How the data were processed

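The transcriptomes of 1 control and 1 DSS-treated organoid culture were sequenced with a stranded mRNA kit, and the authors deposited unnormalized counts of reads for each gene. The submitters' processing notes name HISAT2 and StringTie, and their versions, the annotation and the genome build are not given in the sources used here. The 2 files of single samples, although named for FPKM, repeat the counts of the joint table (0 values differ) and were not used. No gene in that table has 0 counts in a library, so a gene silent in one condition could not be seen.

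Counts were scaled with TMM in edgeR 4.0.16 (R 4.3.3), and DESeq2 1.42.0 gave the alternative size factors. Shares and medians were taken over genes that reached 10 counts in either library. Log2 ratios carry exact Clopper-Pearson 95% intervals, and differences between 2 genes' ratios carry normal intervals from the 4 counts. The ratios and intervals were tried on simulated counts that varied by counting error alone. That trial cannot speak to variation between cultures. Levels per kilobase used the longest protein-coding transcript in GENCODE vM21, with the median length as a check. Promoter sequences are RefSeq's (GRCm38.p6), and a stretch that overlaps an annotated exon is not printed beyond the match. Scripts ran in Python 3.11.15 (pandas 2.3.3, scipy 1.17.1, numpy 2.4.6, matplotlib 3.10.9).

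The 39 genes, their classes and the lists of other genes and markers were chosen with earlier results of these data known, and the pairs of genes compared were chosen after their values were seen. Every one of the 39 genes is named, as is every other pathway gene with an absolute log2 ratio of 1 or more and 50 counts in either library. Marker genes were open to naming by the same limits or as defining markers, and not all are named. One item of these lists is not reported here. Genes named outside this rule were chosen after their values were seen.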

Additional observations from a re-analysis of the deposited data

How the results depend on the processing

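No paired analysis was possible because each condition is 1 library. DESeq2 size factors, a prior count of 2 and thinning of the deeper library changed neither the sign of any of the 39 genes nor its side of the line at a log2 ratio of 1 or -1. Library totals alone lowered all ratios alike. The median log2 ratio was then 0.17 for the 39 genes, 0.12 for receptors and adaptors, 0.13 for kinases, -0.12 for subunits, 0.36 for inhibitors, -0.13 for the other pathway genes (8 of them at -1 or less) and -0.31 for all genes, where 3 of the 39 (7.69%) lay above the upper line and 3 below the lower, against 15.4% and 26.2% of all genes. Under it 23 of the 39 genes were above 0, and with upper quartile factors 29 were, where the median of receptors and adaptors was 0.47. The mean in place of the median was 0.60 for inhibitors, 0.44 for kinases, 0.42 for targets, 0.37 for subunits and 0.21 for receptors and adaptors, so the order of the classes changed. When 50 counts were required in either library, 0 of the 39 genes were at -1 or less, since Icam1 was left out, and the background was 16.7% and 20.4%. At a log2 ratio of 2 or -2, 0 and 0 of the 39 genes, 4 and 1 of the other pathway genes and 1356 and 1127 of all genes were counted. Icam1 and Csf1 had fewer than 50 counts in a library, and their ratios have the widest intervals of the 39.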

Other observations

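The wider TNF superfamily is given here by its values, and it was listed after these values were seen. It was taken as all genes outside the 39 with a Tnfrsf or Tnfsf number in their symbol. Several of them, among them Tnfrsf11a and Tnfsf10, also belong to the 80 other pathway genes, so the 2 tallies overlap. Of 22 such genes, 19 reached 10 counts in either library, with 5 at a log2 ratio of 1 or more (26.3%), 3 at -1 or less (15.8%) and a median of 0.13. Both shares lay near those of all genes tested, 19.3% and 20.2%. Tnfrsf23, which encodes a decoy receptor for TRAIL, had 548 counts without DSS and 3611 with DSS, a log2 ratio of 3.11 (interval 2.98 to 3.24), though it has a close paralog, Tnfrsf22 (203 and 261 counts), with which reads could be shared. Tnfrsf9, the costimulatory receptor 4-1BB, had 11 and 111 counts, at 3.72 (interval 2.83 to 4.77), and Tnfsf15, which encodes the cytokine TL1A, had 19 and 75, at 2.37. In the other direction, Tnfrsf19, a receptor known from intestinal stem cells, had 1619 and 104 counts, at -3.57 (interval -3.87 to -3.29), and Tnfrsf18, which encodes GITR, had 130 and 15, at -2.73. Tnfsf10, the gene of TRAIL itself, had 1605 and 634 counts, at -0.95.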
